A study of Mus musculus with 6 samples.

Results

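The 9 genes described here encode receptor subunits and a scaffold of inhibitory signalling outside the GABA-A alpha and beta subunits. They were chosen by name, with earlier results of these data known, from 55450 genes counted in adult mouse cerebral cortex. All 9 were found, and all 9 passed the filter on low counts that left 27939 genes for the test. They comprise the GABA-A receptor subunits Gabrg1, Gabrg3 and Gabrd, the GABA-B receptor subunits Gabbr1 and Gabbr2, the glycine receptor subunits Glra2, Glra3 and Glrb, and the scaffold Gphn (gephyrin). Polyadenylated RNA was sequenced from 3 cortices of mice heterozygous for Setd5 and 3 wild type cortices. The labels give neither the strain, the sex, the exact age nor the kind of mutation in the chromatin gene Setd5. They also do not say whether replicate libraries stem from different animals. By Xist and Uty, given below, replicate 3 of each genotype differs in sex from replicates 1 and 2. Whether replicates 1 and 2 come from different animals is not known, so p-values here measure spread between libraries that may be partly technical. Per-library values are listed in the order of replicates 1 to 3.

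GABA is the main inhibitory transmitter of the cortex. GABA-A and glycine receptors are pentameric chloride channels. In a GABA-A receptor the gamma or the delta subunit joins alpha and beta subunits; gamma-containing receptors cluster at synapses, and delta-containing receptors lie outside them and carry tonic inhibition. The GABA-B receptor is a G protein-coupled heterodimer in which Gabbr1 binds GABA and Gabbr2 brings its partner to the cell surface and couples to the G protein. Glycine receptors combine alpha subunits with Glrb, which binds gephyrin and so holds the receptor at synapses. Gephyrin also anchors GABA-A receptors and, as an enzyme, makes the molybdenum cofactor.

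Library totals ran from 82850628 to 92860628 counts, and the 9 genes had from 1203 (Glra2) to 53824 (Gabbr1) counts in a library. Setd5 was at 69.5, 68.7 and 75.3 CPM (counts scaled to effective library size) in the heterozygous libraries, against 111, 97.0 and 108 CPM in the wild type ones, so no heterozygous library went against its label. Its log2 difference was -0.56 (SE 0.07), with an adjusted p of 0.258 by edgeR's quasi-likelihood test, so that test did not call Setd5. Wild type replicate 3, whose title follows another naming scheme than the rest, stood apart in 11 markers of striatal projection neurons. Their summed level was 317, 439 and 720.3 CPM in the heterozygous libraries, against 232, 416 and 1649 CPM in the wild type ones, and none of the 11 was at 0. Xist was above 100 CPM in heterozygous replicate 3 and wild type replicate 3 and below 1 CPM in the others. The Y-linked gene Uty was at 30.5, 28.7 and 0.187 CPM in the heterozygous libraries, against 27.6, 28.5 and 0.204 CPM in the wild type ones. Excitatory neuron markers, 12 genes with Slc17a7 and Camk2a among them, were well expressed in all libraries. They summed to between 4696 and 5315 CPM in heterozygous and between 4952 and 5137 CPM in wild type libraries. With no sample of another tissue for comparison, these sums do not test the cortical label.

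Promoter sequences were read for 8 of the 9 genes from RefSeq (GRCm38.p6), as the 250 bases before the start annotated there. Windows are shown for Glra3, Gabrg3 and Gabrg1, since these had the smallest p-values of the 9 in the genotype comparison. The Glra3 window is chr8:55940168-55940417 on the plus strand, the Gabrg3 window chr7:57387216-57387465 on the minus strand and the Gabrg1 window chr5:70842618-70842867 on the minus strand. Each is printed 5′ to 3′, and capitals mark a GC box (GGGCGG on either strand).
Glra3: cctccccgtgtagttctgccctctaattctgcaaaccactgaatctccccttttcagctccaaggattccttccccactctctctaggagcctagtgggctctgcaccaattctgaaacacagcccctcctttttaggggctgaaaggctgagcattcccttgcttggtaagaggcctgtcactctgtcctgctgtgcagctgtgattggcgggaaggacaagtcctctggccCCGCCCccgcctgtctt
Gabrg3: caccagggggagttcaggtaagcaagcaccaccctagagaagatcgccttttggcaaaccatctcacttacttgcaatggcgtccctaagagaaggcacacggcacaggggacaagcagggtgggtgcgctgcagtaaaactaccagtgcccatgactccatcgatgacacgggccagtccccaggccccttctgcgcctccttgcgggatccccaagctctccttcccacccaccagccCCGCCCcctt
Gabrg1: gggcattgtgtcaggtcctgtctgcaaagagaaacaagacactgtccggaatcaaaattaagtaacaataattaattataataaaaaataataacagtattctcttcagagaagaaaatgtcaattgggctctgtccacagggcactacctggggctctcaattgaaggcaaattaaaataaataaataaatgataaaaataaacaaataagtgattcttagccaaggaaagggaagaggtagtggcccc

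The windows differed widely in base composition. That of Gabrg1 held 35.6% G and C with 1 CpG, and those of Glra3 and Gabrg3 held 56.0% with 4 CpG and 60.4% with 9 CpG. Gabbr2 and Gphn had 80.8% with 37 CpG and 77.2% with 34 CpG. These windows differ from the others in place. By the GENCODE M21 positions, Gphn starts at 78226379 on the plus strand, so its window (chr12:78226405-78226654) lies inside the gene. Gabbr2 ends at 46991873 on the minus strand, so part of its window (chr4:46991715-46991964) also lies inside the gene. Over 32851 RefSeq windows of the same length the median was 52.4% with 6 CpG. A GC box was present in 7 of the 8 windows, all but Gabrg1, and in 32.7% of all windows. The letters TATAAA were found in 1 of the 8, that of Glra2, and in 12.4% of all windows. The full cyclic AMP response element TGACGTCA, its core TGACG and the E-box CACGTG were found in 0 of the 8, and in 1.55%, 17.8% and 6.02% of all windows. Both strands were searched, TGACG lies within TGACGTCA, and a match or its absence describes only the letters of the window.

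No gene of the group passed the test between genotypes, which did not call Setd5 either. In edgeR's quasi-likelihood test 0 of the 9 were called at a Benjamini-Hochberg adjusted p under 0.05, where 0% of the 27939 genes tested were called, and 0 of the 9 were called by DESeq2, which called 0.251% of the genes it adjusted, or by the likelihood ratio test or limma-voom. At an unadjusted p under 0.05 there was 1 of 9, Glra3 on the lower side, against 5.83% of all genes tested (2.44% higher, 3.38% lower). The libraries of the genotypes did not overlap for 2 of the 9, Gabrg3 on the higher and Glra3 on the lower side, against 11.7% of all genes (5.88% higher, 5.85% lower). Fitted levels in heterozygous cortex were above wild type for 2 genes and below it for 7, with a median log2 difference of -0.07, and the median over all genes tested was -0.00053 (13933 above, 14006 below). Where levels differ in bulk tissue, fewer cells that express a gene and less RNA per cell cannot be told apart.

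**Figure D1:**
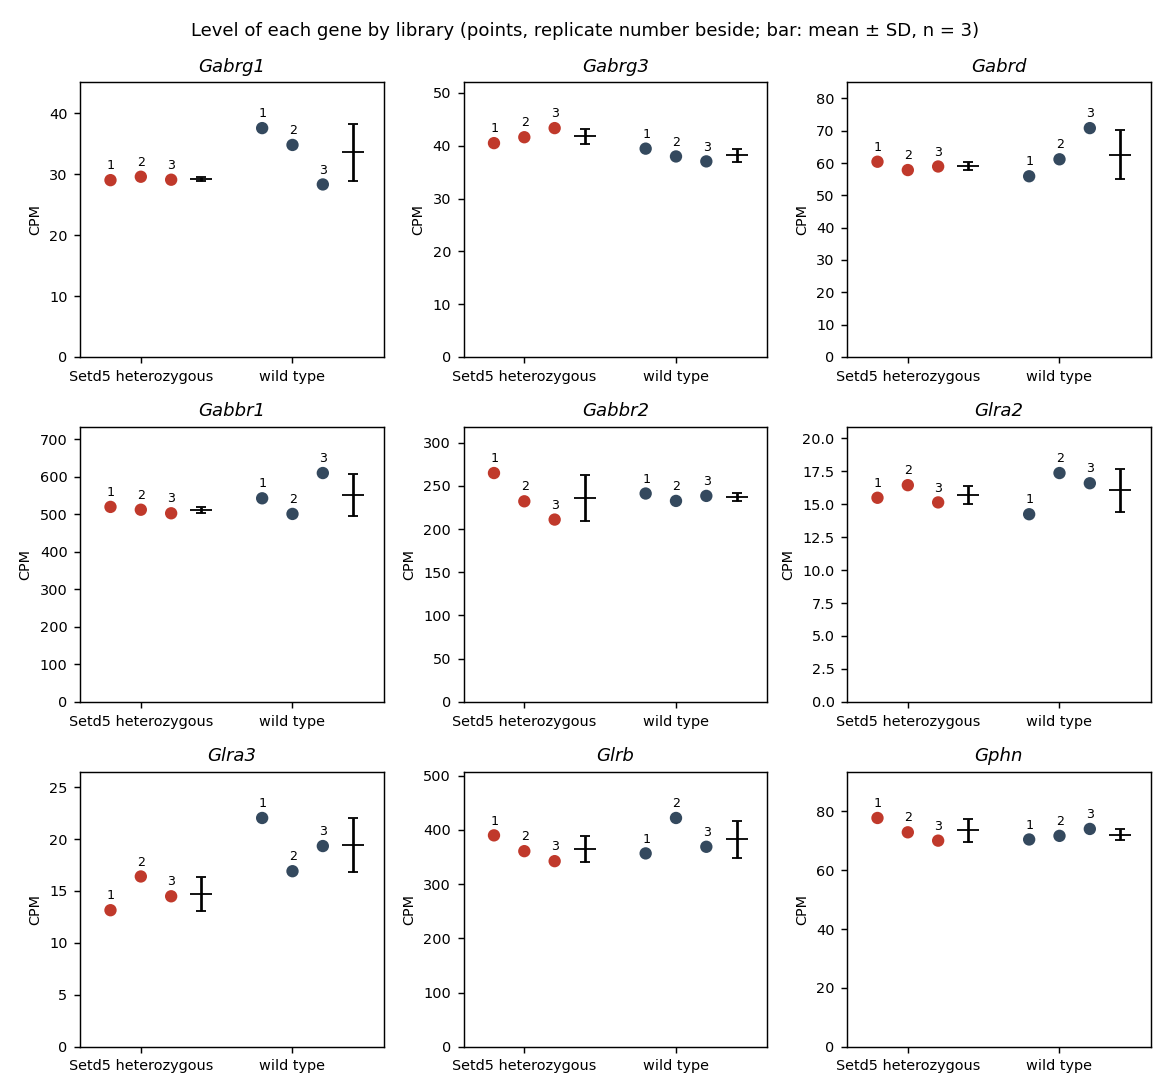
Level of the 9 genes in CPM (linear axes from 0), with a point for each of 3 heterozygous (left) and 3 wild type (right) libraries, the replicate number above each point, and the mean ± SD beside each group. Glra3 lies between 13.2 and 16.4 CPM in heterozygous and between 16.9 and 22.0 CPM in wild type libraries, Gabrg3 is apart on the other side, and the groups of the other 7 genes overlap.

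Glra3, which encodes the glycine receptor alpha 3 subunit best known from spinal cord and retina, showed the widest difference between genotypes among the 9. The gene (ENSMUSG00000038257.9) lies on chromosome 8 from 55940460 to 56130070 in GRCm38. It was at 13.2, 16.4 and 14.5 CPM in the heterozygous libraries, against 22.0, 16.9 and 19.3 CPM in the wild type ones. Every heterozygous library was lower than every wild type library, though heterozygous replicate 2 and wild type replicate 2 lay close together. The means were 14.7 ± 1.63 CPM in heterozygous cortex, against 19.4 ± 2.56 CPM in wild type (SD, n = 3 each). The fitted heterozygous level was 75.6% of wild type (95% interval 62.9% to 90.8%, unadjusted). The log2 difference was -0.40 (SE 0.12), with an adjusted p of 0.789 by edgeR's quasi-likelihood test, and its p ranked 242 among the genes tested. Over the other fits the adjusted p ran from 0.181 in DESeq2 to 1 with heterozygous replicate 1 left out. The difference ran from -0.50 without wild type replicate 2 to -0.30 without wild type replicate 1, and was -0.41 without wild type replicate 3. Markers of blood vessel cells and microglia were also lower without overlap. The 10 vascular markers summed to 348, 348 and 358 CPM in the heterozygous libraries, against 429.7, 413 and 363 CPM in the wild type ones. Of these 10, 6 were lower at an unadjusted p under 0.05, against 3.38% of all genes tested. Groups were apart on the lower side for 6, against 5.85% of all genes. The 9 microglia markers summed to 371, 375 and 410.35 CPM in the heterozygous libraries, against 444, 427 and 411 CPM in the wild type ones. Of these 9, 2 were lower at an unadjusted p under 0.05 and 4 were apart on the lower side, against the same shares of all genes. No marker of either list was at 0, and their part in the Glra3 values was not tested.

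Glra2 encodes the alpha subunit that predominates in the immature brain and lies on the X chromosome, from 165129017 to 165327393. Its values were 15.5, 16.4 and 15.1 CPM in the heterozygous libraries, against 14.2, 17.4 and 16.6 CPM in the wild type ones, and the groups overlapped. The log2 difference was -0.03 (SE 0.09), which puts the heterozygous level between 84.3% and 113% of wild type. With a term in the fit that marked libraries of Xist above 100 CPM it was also -0.03. Heterozygous replicate 3 and wild type replicate 3, with Xist above 100 CPM, were at 15.1 and 16.6 CPM of Glra2, inside the range of the other libraries.

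Glrb, the shared beta subunit, was far above both alpha genes. It was at 390.0, 361 and 342 CPM in the heterozygous libraries, against 357, 422 and 369 CPM in the wild type ones, with the highest value in wild type replicate 2. The log2 difference was -0.07 (SE 0.08). Without wild type replicate 2 it was 0.0024. Per kilobase of merged exon, Glrb averaged 80.2 CPM over the 6 libraries, Glra2 5.04 CPM and Glra3 1.85 CPM.

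Per kilobase of exon, the balance of the glycine receptor alpha genes leaned to Glra2 in every library, but in CPM it did not. The merged exons were 9208 bases for Glra3 and 3150 for Glra2. In CPM, Glra3 was above Glra2 in wild type replicate 1 (22.0 against 14.2) and wild type replicate 3 (19.3 against 16.6). It was below Glra2 in the other libraries, narrowly so in heterozygous replicate 2 (16.40 against 16.43). On the scale of counts per kilobase of exon the ratio of Glra3 to Glra2 was 0.291, 0.341 and 0.328 in the heterozygous libraries, against 0.529, 0.333 and 0.399 in the wild type ones. The heterozygous values overlapped wild type replicate 2, and wild type replicate 1 was the highest. The difference of mean log2 ratio was -0.37, with a two-sided exact permutation p of 0.2 (0.4 after adjustment over the 4 ratios examined), where 3 libraries against 3 cannot give less than 0.1. Without wild type replicate 1 the difference was -0.19.

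Gabrg3, a gamma subunit of the GABA-A receptor, was the member with groups apart on the higher side. The gene (ENSMUSG00000055026.13) spans chromosome 7 from 56716465 to 57387188, the longest body of the 9. It was at 40.5, 41.6 and 43.3 CPM in the heterozygous libraries, against 39.5, 38.0 and 37.0 CPM in the wild type ones. The gap between the lowest heterozygous and the highest wild type library was narrow. The means were 41.8 ± 1.43 CPM in heterozygous cortex, against 38.2 ± 1.22 CPM in wild type (SD, n = 3 each). The log2 difference of 0.13 (SE 0.06), with an interval of 99.3% to 121% of wild type, had an adjusted p of 0.864 by edgeR. The summed level of 8 thalamic markers was apart on the higher side, while their mean log2 level overlapped. The sum was at 95.2, 99.0 and 92.0 CPM in the heterozygous libraries, against 86.3, 86.4 and 90.1 CPM in the wild type ones. Of the 8, 6 were fitted higher and 2 lower. Groups were apart for 0 of the 8, against 11.7% of all genes, and 0 were at an unadjusted p under 0.05. Slc17a6 alone was at 48.4, 46.8 and 39.7 CPM in the heterozygous libraries, against 37.7, 35.8 and 45.2 CPM in the wild type ones. The part of these markers in the Gabrg3 values was not tested.

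Gabrg1, the other gamma gene of the group, was tight in heterozygous cortex and spread in wild type cortex. It was at 29.0, 29.6 and 29.1 CPM in the heterozygous libraries, against 37.5, 34.8 and 28.3 CPM in the wild type ones. Wild type replicate 3 lay below all heterozygous libraries, and wild type replicates 1 and 2 lay above them. The log2 difference was -0.20 (SE 0.10; edgeR adjusted p = 0.864). It was -0.31 without wild type replicate 3 (edgeR adjusted p = 0.272), and -0.11 without wild type replicate 1. Glia as well as neurons are known to express Gabrg1. Of 10 astrocyte markers 8 had a lower fitted level in heterozygous cortex, led by the water channel Aqp4 (log2 difference -0.28, SE 0.08) and the gap junction gene Gja1 (-0.20, SE 0.07). The 10 summed to between 4364 and 4714 CPM in heterozygous and between 4635 and 4777 CPM in wild type libraries, which overlapped, and none was at 0. Their mean log2 level, relative to the wild type mean, was apart on the lower side, at -0.15, -0.13 and -0.06 in the heterozygous libraries, against -0.01, -0.02 and 0.03 in the wild type ones. The part of astrocyte content in the Gabrg1 values was not tested.

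Gabrd, the delta subunit of extrasynaptic receptors, was at 60.4, 57.8 and 58.9 CPM in the heterozygous libraries, against 55.9, 61.1 and 70.8 CPM in the wild type ones. The wild type libraries lay on both sides of the heterozygous ones, with wild type replicate 3 the highest. The log2 difference was -0.08 (SE 0.09), and 0.01 without wild type replicate 3. The ratio of Gabrd to the sum of Gabrg1 and Gabrg3, per kilobase of exon, was 2.97, 2.78 and 2.80 in the heterozygous libraries, against 2.41, 2.80 and 3.67 in the wild type ones. The wild type ratios enclosed all 3 heterozygous ones (two-sided exact permutation p = 0.8, adjusted over 4 ratios 0.8).

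**Figure D2:**
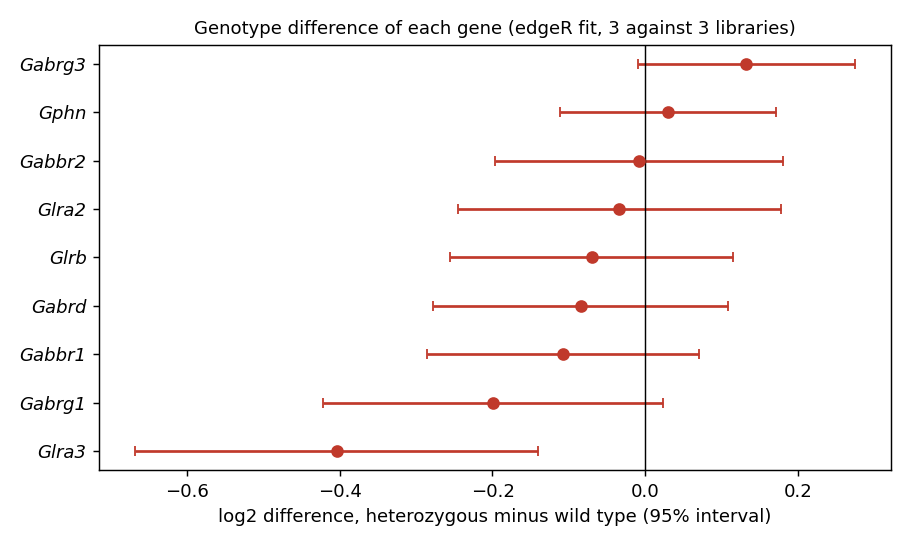
Log2 difference of each of the 9 genes, heterozygous minus wild type (x axis), as points with unadjusted 95% intervals from the edgeR fit on 3 against 3 libraries. The interval of Glra3, from -0.67 to -0.14, lies below 0, and those of the other 8 genes include 0.

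Gabbr1 and Gabbr2, the partners in the GABA-B receptor, had more CPM than 99.4% and 97.8% of the genes tested. Gabbr1 was at 520.1, 513 and 503 CPM in the heterozygous libraries, against 543, 501 and 610.4 CPM in the wild type ones, and wild type replicate 3 again was the highest. Its log2 difference was -0.11 (SE 0.08), and -0.03 without wild type replicate 3. Gabbr2 was at 265, 232 and 211 CPM in the heterozygous libraries, against 241, 233 and 238 CPM in the wild type ones. Here the heterozygous libraries were the spread ones and enclosed the wild type values, with a coefficient of variation of 11.5% in heterozygous and 1.84% in wild type cortex. The log2 difference of Gabbr2 was -0.01 (SE 0.08), an interval of 87.2% to 113% of wild type. The ratio of Gabbr1 to Gabbr2 per kilobase of exon was 1.69, 1.90 and 2.05 in the heterozygous libraries, against 1.94, 1.86 and 2.21 in the wild type ones, and the groups overlapped (two-sided exact permutation p = 0.5, adjusted over 4 ratios 0.667).

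Gphn, the gephyrin gene on chromosome 12 from 78226379 to 78684772, had the smallest deviation of the 9 over the 6 libraries pooled, a root mean square of 0.051 in log2 CPM. Within genotypes others were tighter: its coefficient of variation was 5.29% in heterozygous and 2.52% in wild type cortex, and that of Gabrg1 was 1.04% in heterozygous cortex. It was at 77.7, 72.8 and 70.0 CPM in the heterozygous libraries, against 70.4, 71.6 and 74.0 CPM in the wild type ones. The log2 difference was 0.03 (SE 0.06), which puts the heterozygous level between 92.6% and 113% of wild type. An RNA from the opposite strand, Gm48226, overlaps 147 of its 3749 exon bases, and since strand is not marked by the kit, their reads cannot be told apart in that stretch. The ratio of Glrb to Gphn per kilobase of exon was 4.04, 3.99 and 3.94 in the heterozygous libraries, against 4.08, 4.75 and 4.02 in the wild type ones. Wild type replicate 2 was the highest, and the groups overlapped (two-sided exact permutation p = 0.2, adjusted over 4 ratios 0.4).

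**Figure D3:**
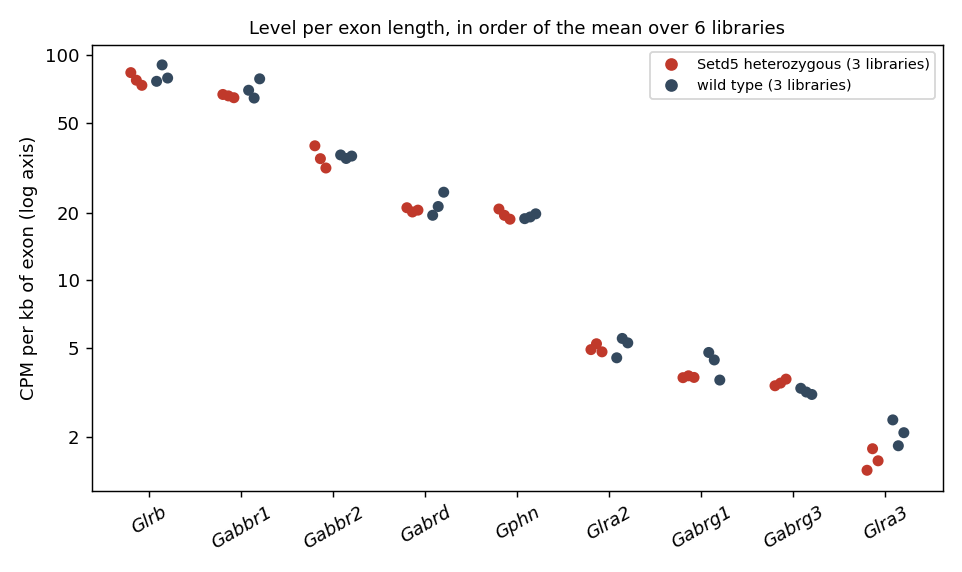
Level of the 9 genes in CPM per kilobase of merged exon on a log axis, ordered by the mean over 6 libraries, with a point per library, heterozygous left of wild type. Glrb and Gabbr1 are at the top and Glra3 is at the bottom, and the breaks without overlap lie below Gabbr1, Gabbr2, Gphn and Gabrg3.

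Levels per kilobase of exon spanned a wide range and kept nearly the same order in all libraries. Averaged over the 6 libraries they were 80.2 CPM per kb for Glrb, 68.5 for Gabbr1, 35.4 for Gabbr2, 21.2 for Gabrd, 19.4 for Gphn, 5.04 for Glra2, 3.99 for Gabrg1, 3.35 for Gabrg3 and 1.85 for Glra3. Glrb was above Gabbr1 in 6 of 6 libraries although their ranges overlapped, and so were Gabrd above Gphn and Gabrg1 above Gabrg3. Glra2 was above Gabrg1 in 5 of 6 libraries, with overlapping ranges. Gabbr1 was 1.94 times Gabbr2, Gabbr2 1.67 times Gabrd, Gphn 3.85 times Glra2 and Gabrg3 1.81 times Glra3, each with ranges over libraries that did not overlap. Glrb and Gabbr1 made up 33.6% and 28.7% of the summed level of the 9 per kilobase, and Glra3 0.775%. Such levels depend on the exons that the annotation merges and on how reads over exon junctions were aligned.

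**Figure D4:**
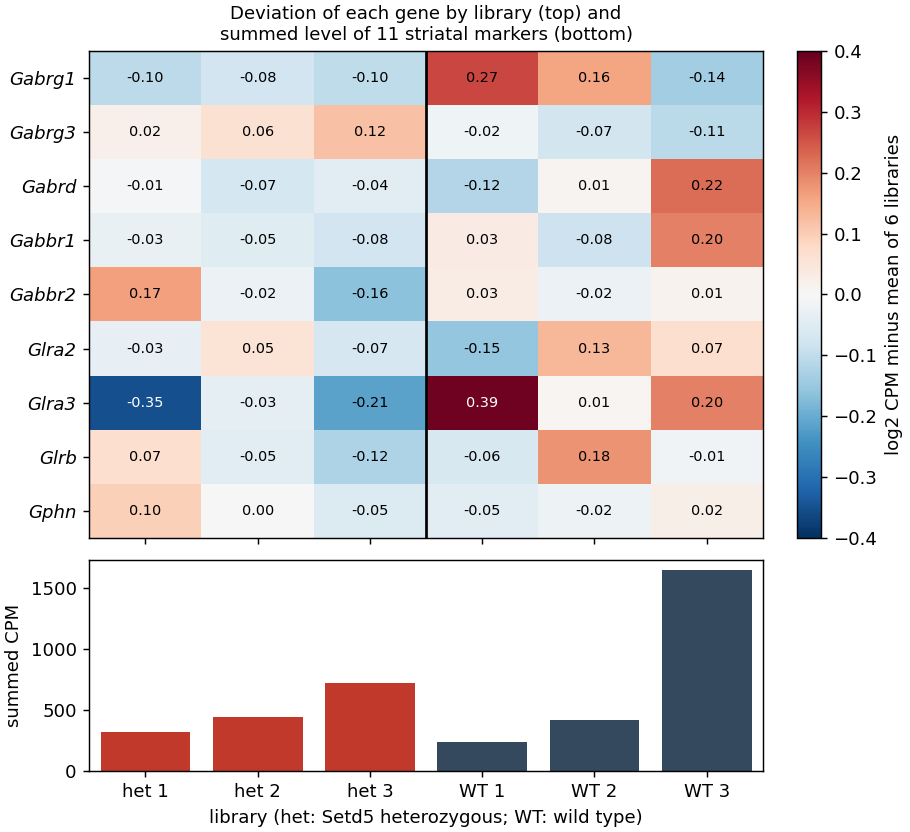
Top, log2 CPM of each of the 9 genes minus its mean over 6 libraries (red above, blue below), heterozygous libraries left of the line and wild type right. Bottom, summed CPM of 11 striatal markers in the same libraries, from 232 to 1649 CPM. Wild type replicate 3, with the tallest bar, has the largest values of Gabrd (0.22) and Gabbr1 (0.20).

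Deviations by library were compared after each gene was centred on its own mean over the 6 libraries. Gabrd and Gabbr1 were each other's nearest member, with a root mean square difference of 0.08 in log2 CPM, and both peaked in wild type replicate 3 at 0.22 and 0.20 above their means. That library was the highest of the 6 in striatal markers and the lowest in Gabrg1 (-0.14) and Gabrg3 (-0.11). With the striatal marker level as a covariate, chosen after seeing the data, the log2 difference was -0.06 for Gabrd, -0.09 for Gabbr1, -0.22 for Gabrg1 and -0.41 for Glra3. Gabbr2 and Gphn were likewise nearest to each other (0.06), with their highest values in heterozygous replicate 1, at 0.17 and 0.10. Glra2 and Glrb formed the last such pair (0.08), both highest in wild type replicate 2.

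Genes whose pattern over the 6 libraries was closest to that of a member were sought among 9635 named protein-coding genes of at least 10 CPM. For Glra3 these were Rbp4, the plasma retinol carrier (root mean square difference 0.09), the phosphatase Ptpn13 (0.11) and the receptor kinase Grk5 (0.11), where the median over all candidates was 0.26. Rbp4 was at 9.81, 11.2 and 10.2 CPM in the heterozygous libraries, against 15.7, 13.1 and 12.5 CPM in the wild type ones. For Gphn the nearest were Tmem151a (0.01), Ttc7b (0.02) and the ubiquitin protease Usp32 (0.02), with a median of 0.10 over the candidates. Such closeness is a description of 6 libraries.

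The other pore-forming subunits of GABA-A and glycine receptors formed a list of 18, of which 14 were tested. In edgeR's test 0 passed, 1 was higher and 1 lower at an unadjusted p under 0.05 (2.44% and 3.38% of all genes tested), and the median log2 difference was -0.0030. Gabrb1, a beta subunit, was lower in every heterozygous library, at 169 ± 3.27 CPM in heterozygous cortex, against 199 ± 5.73 CPM in wild type (SD, n = 3 each; edgeR adjusted p = 0.748). Gabre, the epsilon subunit, was near the limit of detection, at 0.229 ± 0.0415 CPM in heterozygous cortex, against 0.115 ± 0.00318 CPM in wild type (SD, n = 3 each). Gabra6, an alpha subunit of cerebellar granule cells, averaged 0.188 CPM in heterozygous cortex, against 0.0854 CPM in wild type, and the groups overlapped. Gabra3 had a log2 difference of -0.13 (SE 0.08). Glra1, Gabrp, Gabrr1 and Gabrr3 had too few counts for the test, with 34 counts of Glra1 over all 6 libraries.

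Partners of gephyrin and genes that anchor or traffic GABA-A receptors showed little difference as a list. Of 25 genes 0 passed edgeR's test and 0 were at an unadjusted p under 0.05, with 12 fitted higher, 13 lower and a median of -0.0018. The smallest p was that of Insyn1, an inhibitory synapse protein, at 78.3 ± 1.13 CPM in heterozygous cortex, against 89.9 ± 12.7 CPM in wild type (SD, n = 3 each), a difference of -0.20 (SE 0.09) with groups that did not overlap. The adhesion regulator Mdga1 was at -0.36 (SE 0.19), Fam196a (now Insyn2a) at 0.21 (SE 0.11) and Igsf9b at 0.20 (SE 0.11), with overlapping groups. Among 7 genes of the molybdenum cofactor pathway, to which gephyrin also belongs, 0 passed and 0 were at an unadjusted p under 0.05. The median there was -0.22, from molybdenum enzymes such as Xdh (-0.59, SE 0.31) and Aox1 (-0.22, SE 0.13) and the synthesis genes Mocs1 (-0.25, SE 0.14) and Mocs2 (0.07, SE 0.07).

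GABA-B receptor auxiliary subunits and effectors numbered 16, of which 0 passed edgeR's test and 1 was lower at an unadjusted p under 0.05 (3.38% of all genes tested), with a median of -0.02. That gene was Kctd12, an auxiliary subunit that speeds desensitization of the receptor, at 55.7 ± 2.87 CPM in heterozygous cortex, against 67.6 ± 8.33 CPM in wild type (SD, n = 3 each). The difference in log2 was -0.28 (SE 0.09; edgeR adjusted p = 0.818), and the groups did not overlap. The inhibitory G protein genes Gnai2 and Gnai3 differed by -0.11 (SE 0.06) and 0.19 (SE 0.09), and the auxiliary subunit gene Kctd16 by -0.11 (SE 0.07).

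Genes of GABA and glycine synthesis, transport and breakdown numbered 17, of which 16 were tested, 0 passed edgeR's test and 3 were lower at an unadjusted p under 0.05 (3.38% of all genes tested), with a median of -0.07. Gldc, the decarboxylase of the glycine cleavage system, was at 13.2 ± 0.587 CPM in heterozygous cortex, against 17.2 ± 1.67 CPM in wild type (SD, n = 3 each), which differed in log2 by -0.38 (SE 0.09; edgeR adjusted p = 0.748). The GABA and betaine transporters Slc6a12 and Slc6a13 differed by -0.91 (SE 0.26) and -0.57 (SE 0.17), and the groups did not overlap for either. Slc6a13 is also on the list of 10 meningeal fibroblast markers, of which 10 had a lower fitted level in heterozygous cortex; these summed to between 224 and 252 CPM in heterozygous and between 245 and 373 CPM in wild type libraries, with none at 0. At an unadjusted p under 0.05 in edgeR's test, 6 of these 10 were lower, against 3.38% of all genes tested. Groups were apart on the lower side for 2 of the 10, against 5.85% of all genes. Their mean log2 level, relative to the wild type mean, was -0.58 in wild type replicate 3. That was below the heterozygous libraries, at -0.49, -0.54 and -0.49. DESeq2 called 1 of the 10, the collagen gene Col1a1. The vascular markers, of which DESeq2 called Vtn, were also lower, as given with Glra3. The part of either list in the transporter values was not tested. Slc6a9, the glial glycine transporter, differed by -0.32 (SE 0.16), with wild type replicate 3 at 27.9 CPM and the other 5 libraries between 16.4 and 19.5 CPM.

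Chloride transporters and their kinases, which set the direction of current through these receptors, showed no call among 11 genes. In edgeR's test 0 passed and 0 were at an unadjusted p under 0.05, with 3 fitted higher, 8 lower and a median of -0.06. The 4 smallest p-values belonged to the kinases Stk39 (-0.10, SE 0.07), Wnk3 (-0.08, SE 0.07) and Wnk1 (-0.07, SE 0.07) and the cotransporter Slc12a7 (-0.17, SE 0.14).

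Interneurons are the source of cortical GABA, and 16 markers of them gave 0 calls, with 1 lower at an unadjusted p under 0.05 (3.38% of all genes tested) and a median of 0.05. Their summed level was between 1363 and 1426 CPM in heterozygous and between 1259 and 1489 CPM in wild type libraries, so the groups overlapped. Groups were apart for 2 of the 16, 1 on each side, against 11.7% of all genes tested. These were Reln, a secreted guidance protein, at -0.19 (SE 0.07), and the receptor Erbb4, at 0.18 (SE 0.08). DESeq2, the likelihood ratio test and both forms of limma-voom likewise called 0 genes of these receptor, partner, transmitter, chloride and interneuron lists.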

How the data were processed

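For each library the authors deposited a table of raw, whole-number counts per gene, without normalization. Per the submitters' processing notes, the authors' tools included Bowtie2 2.3.4.3 and featureCounts, beside FastQC and DESeq2, and the builds were mm10 and GRCm38.p6; for order, settings and strand the notes used here give nothing. The library kit was the TruSeq RNA kit v2, per the labels' protocols. All 55450 identifiers matched GENCODE M21, which gave symbols, positions and merged exon lengths; the highest count decided where a symbol had several identifiers.

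Genes were filtered with edgeR's filterByExpr (minimum count 10, minimum total 15), scaled with TMM and tested by genotype alone with glmQLFTest (edgeR 4.0.16, R 4.3.3); p-values were adjusted by Benjamini-Hochberg over 27939 genes. Alternatives used DESeq2 1.42.0 and limma 3.58.1. The common biological coefficient of variation was 16.1%. The test was checked on simulated data. Ratios were compared by two-sided exact permutation tests. All pairs of libraries differed beyond sampling noise (chi-square per gene 11.8 to 94.0).

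The 9 members and the lists were chosen with earlier results of these data known. Named are Setd5, the 9 members, up to 4 genes per pathway list and 2 per marker list by smallest p, and the nearest genes in pattern. Xist, Uty, Slc17a7, Camk2a and the subunit genes with too few counts to test are named outside this rule, after their values were seen. The lists of 8 dentate, 8 thalamic, 10 oligodendrocyte, 8 precursor, 9 microglia and 10 vascular markers had medians of 0.01, 0.07, 0.30, -0.13, -0.17 and -0.36, and 12 excitatory and 11 striatal markers 0.01 and -0.58, with 0 calls in each by edgeR; DESeq2 called 1 of these genes, the vascular marker Vtn.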

Additional observations from a re-analysis of the deposited data

How the results depend on the processing

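No paired analysis was possible because the labels give no replicate numbers shared between genotypes. The replicate numbers used here follow the order of the samples within each genotype and pair no libraries. None of the 9 genes was called under any of 19 alternatives. Glra3, Gabrg1, Gabbr1 and Gabrg3 kept their direction throughout. Genes called over all tested went from 0 higher and 0 lower in edgeR's quasi-likelihood test (1628 at an unadjusted p under 0.05) to 16 and 46 in DESeq2, 13 and 16 in the likelihood ratio test, 1 and 5 with every gene of at least 1 count, 1 and 1 in limma-voom with quality weights, 1 higher at an adjusted p of 0.1, and 0 to 2 lower with a library left out; limma-voom without weights called 0. The cause of these changes was not tested.

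Log2 differences near 0 changed sign. Gabbr2 was at 0.019 with the length trend and 0.024 with the GC trend removed, and Glra2 at 0.029 in limma-voom with quality weights. With both libraries of high Xist left out, chosen after seeing the data, Gabbr2 was at 0.069, Gabrd at 0.014 and Glra2 at 0.014. With 1 library left out, the ranges were -0.10 to 0.062 for Gabbr2, -0.16 to 0.013 for Gabrd, -0.11 to 0.021 for Glra2, -0.13 to 0.0024 for Glrb and -0.016 to 0.060 for Gphn. The ratio of Gabrd to Gabrg1 and Gabrg3 ran from -0.17 to 0.13, the highest without wild type replicate 3. Members with groups apart ran from 2 to 4, the highest without wild type replicate 1, where Gabrd and Glra2 joined on the lower side and 22.2% of all genes were apart; over the libraries left out that share ran from 17.5% to 26.3%, against 11.7% with all 6.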
